A study of Homo sapiens with 24 samples.

Results

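Genes that depended on ETV1 in the presence of androgen were read from LNCaP, an androgen-responsive human prostate cancer cell line. The comparison set 3 arrays of LNCaP cells with a short hairpin RNA against ETV1 and dihydrotestosterone (shETV1, DHT) against 3 arrays of LNCaP cells with a control hairpin and the same hormone (shControl, DHT), 6 of the 24 arrays of the study. RNA interference ran for 24 h in every group and was followed by 2 days without hormone and 16 h with hormone or vehicle. The DHT groups received 10 nM DHT, a natural androgen, and the EtOH groups the ethanol vehicle. The same knockdown with EtOH (3 shETV1 and 3 shControl arrays) served for values set beside this comparison. So did 12 arrays of a second androgen-responsive prostate cancer line, VCaP, in which ERG had been targeted by small interfering RNA (siERG, with siControl as its control), with DHT or EtOH. All LNCaP groups come from a line that carries a rearranged ETV1. The treatment label of the LNCaP controls reads siControl, whereas their titles read shControl. The labels give neither the hairpin sequence nor whether the cells were clones or pools, and nothing beyond the words biological replicates says how the 3 arrays of a group were grown.

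ETV1 belongs to the ETS family of transcription factors, which recognise DNA with a GGAA core and often act downstream of MAP kinase signalling. In prostate cancer, ETS genes such as ERG and ETV1 are activated by gene fusions or rearrangements. Androgens such as DHT raise genes such as KLK3, encoding prostate-specific antigen, and lower others.

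Intensities were measured on Affymetrix HG-U133 Plus 2.0 arrays with 54675 probe sets. All changes are differences of log2(intensity + 16), shETV1 minus shControl unless stated otherwise, each with its standard error (3 arrays per group), and the offset of 16 understates the change of dim genes. A gene was said to rise or fall when its limma p-value, adjusted over the 12847 genes tested, was below 0.05. In bulk RNA, a change per cell and a change in the mix of cells cannot be told apart. All 9 LNCaP identity markers with a probe set were bright, the lowest being FOLH1 at the 86.9th percentile of an array. Of 18 markers of other cell types, chiefly fibroblasts, endothelium and blood cells, 10 exceeded the array median in 1 or more DHT arrays. Their summed intensity was 887 to 961 in shETV1 and 900 to 967 in shControl arrays (exact permutation p = 0.7, two-sided, with 0.1 the smallest possible). The array median was 44.2 to 44.6 in shETV1 and 42.7 to 43.4 in shControl arrays, and the 3′ to 5′ ratio of GAPDH was 1.067 to 1.085 in shETV1 and 1.086 to 1.091 in shControl arrays. Neither overlapped between the groups (exact permutation p = 0.1 each). The 3′ to 5′ ratio of ACTB was 2.85 to 3.31 in shETV1 and 2.63 to 2.90 in shControl arrays (exact permutation p = 0.2). When the fit took the GAPDH ratio as a covariate, 208 genes rose and 232 fell, and with the ACTB ratio 273 rose and 186 fell, against 337 and 312 without either.

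ETV1 was lowered but not lost. Its intensity was 809, 892 and 803 in the shETV1 DHT arrays and 1326, 1290.4 and 1264 in the shControl DHT arrays, and the groups did not overlap. The mean was 35.5% lower, a change of -0.62 ± 0.07 (adjusted p = 4.73e-04). Over its 5 probe sets the mean was 32.8% to 42.1% lower with DHT, and each shETV1 array lay below each shControl array in all 5. The knockdown was therefore partial at the level of RNA.

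With DHT, 337 genes rose (2.62% of those tested) and 312 fell (2.43%). Most changes were small: the median size was 0.30 among the risen and 0.35 among the fallen genes, beside 0.08 among all genes tested. Only 5 risen and 5 fallen genes changed at least 2-fold, another 31 and 44 changed 1.5-fold to 2-fold, and 301 and 263 changed less. The split between the directions moved with the scaling. With arrays centred on their median 221 rose and 480 fell, and with quantile normalization 210 rose and 418 fell, while the median change over all genes was 0.02 as deposited, -0.01 after centring and 0.00 after quantile normalization. Single arrays mattered as well. The counts were 133 risen and 190 fallen without shETV1 DHT replicate A, 215 and 252 without B, and 179 and 172 without C, and they were 188 and 174 without shControl DHT replicate A, 149 and 172 without B, and 240 and 215 without C.

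Across all probe sets with no filter, 237 rose (0.433%) and 200 fell (0.366%). Of these 437, 351 have a single gene in the probe table and represent 287 genes, and 45 genes had at least 2 called probe sets, which never differed in sign. Without any 1 of the 6 DHT arrays 92 to 152 probe sets rose and 82 to 132 fell, each less than with all 6. The other 86, 65 risen and 21 fallen, have no single gene there, and their changes ran from -1.22 to 1.49.

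**Figure D1:**
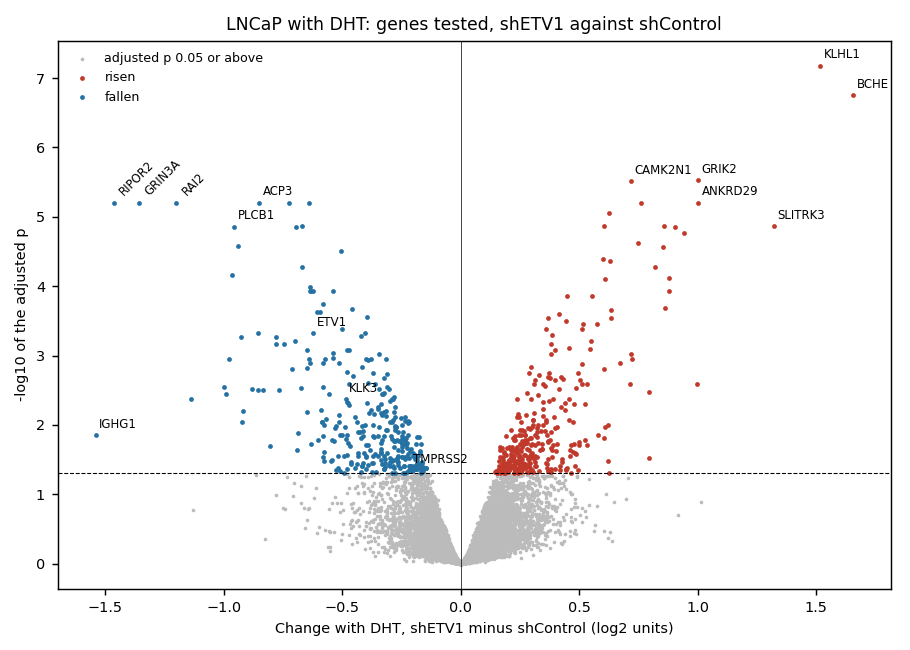
Change with DHT (x, shETV1 minus shControl, log2 units) against -log10 of the adjusted p (y) for the 12847 genes tested; the dashed line marks 0.05. BCHE and KLHL1 lie farthest right, at 1.65 and 1.52, while most called genes lie close to 0.

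The genes that fell most encode a signalling regulator, a glutamate receptor subunit, adhesion and matrix proteins and long non-coding RNAs. RIPOR2, a binding partner of the GTPase RhoA, had intensities of 106, 129 and 104 in shETV1 and 347, 359 and 314 in shControl arrays. Its change was -1.46 ± 0.08 (adjusted p = 6.23e-06). GRIN3A, a subunit of NMDA-type glutamate receptors, had 108, 96.4 and 103 in shETV1 and 287, 284 and 291 in shControl arrays (-1.36 ± 0.08). In both genes every shETV1 array stood far below every shControl array. RAI2, a nuclear protein that binds the CtBP corepressors, had 35.2, 41.4 and 40.1 in shETV1, all under the array median, and 108, 115.9 and 106 in shControl arrays (-1.20 ± 0.07). CADPS2, which primes secretory vesicles for calcium-triggered release, had 166, 165 and 172 in shETV1 and 352, 327 and 351 in shControl arrays (-0.97 ± 0.08). PLCB1, a phospholipase C downstream of G protein-coupled receptors, had 152, 126 and 140 in shETV1 and 266, 295 and 294 in shControl arrays (-0.95 ± 0.06). Its other 2 probe sets, both dim, differed by 0.14 and 0.22 and did not pass, and its call was lost when the probe sets were averaged.

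PCGEM1, a prostate long non-coding RNA, had intensities of 189, 162 and 175 in shETV1 and 341, 353 and 356 in shControl arrays. It fell by 0.94 on the log2 scale (SE 0.07, adjusted p = 2.59e-05). ANGPT2, a ligand of the endothelial TIE2 receptor, had 73.2, 61.0 and 86.2 in shETV1 and 151, 130 and 163 in shControl arrays (-0.88 ± 0.13, adjusted p = 0.00306). With an offset of 1 and the probe set kept, ANGPT2 changed by -1.01 ± 0.21 (adjusted p = 0.0264). When the offset of 1 also moved the choice to another of its probe sets, the change was -0.27 and did not pass (adjusted p = 0.388). CRISPLD1, a secreted cysteine-rich protein (-1.14 ± 0.17), PALMD (-0.99 ± 0.15), SDK1, an adhesion molecule of the immunoglobulin superfamily (-0.98 ± 0.12), GBP3, an interferon-inducible GTPase (-0.93 ± 0.10), COL12A1, a collagen (-0.92 ± 0.16), and BEX5 (-0.92 ± 0.15) also fell. The PALMD call was lost with averaged probe sets (adjusted p = 0.0963). Of the 5 COL12A1 probe sets 2 changed downward and 1 passed across all probe sets, and the highest change was 0.36. With only the 2 groups compared, the calls of CRISPLD1, COL12A1 and BEX5 were lost (limma adjusted p = 0.056, 0.060 and 0.058). SDK1 was tested only because of its 3 shControl DHT arrays, since it lay under the array median in all 9 others. COL12A1 and LINC01535, described below, also needed those 3 arrays, since only 1 other array of each exceeded the median. CRISPLD1 and BEX5 exceeded it only in shControl arrays. Of these genes, CRISPLD1, SDK1, GBP3 and BEX5 lay under the array median in all 3 shETV1 arrays. IGHG1, an antibody heavy chain gene, had the most negative change, -1.54 ± 0.29 (adjusted p = 0.0140), with 33.4, 84.4 and 65.0 in shETV1 and 177, 195 and 227 in shControl arrays. That call rests on 1 of its 5 probe sets; the other 4 were dim and changed by -0.15 to 0.12.

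The genes that rose most were led by BCHE, which encodes the esterase butyrylcholinesterase. BCHE had intensities of 174, 193 and 181 in shETV1 and 48.8, 47.2 and 45.3 in shControl arrays, a change of 1.65 ± 0.06 (adjusted p = 1.77e-07). KLHL1, an actin-binding kelch-like protein, had 809, 768 and 751 in shETV1 and 263, 250.2 and 269 in shControl arrays (1.52 ± 0.05, adjusted p = 6.62e-08). In both genes the arrays of a group lay within a narrow band, and the choice of these genes required bands that do not overlap. The other probe set of KLHL1, which was dim, changed by -0.07. SLITRK3, a synaptic adhesion protein, had 95.4, 82.0 and 77.4 in shETV1 and 20.3, 23.7 and 29.5 in shControl arrays (1.32 ± 0.09), with every shControl array under the array median. GRIK2, a kainate-type glutamate receptor subunit, had 332, 344 and 344 in shETV1 and 157, 171 and 158 in shControl arrays (1.0 ± 0.05, adjusted p = 2.94e-06). EPHA3, a receptor tyrosine kinase for ephrins, had 153, 176 and 161 in shETV1 and 69.9, 77.2 and 85.5 in shControl arrays (0.94 ± 0.07). Its other 2 probe sets, both dim, changed by 0.25 and -0.08, and with all averaged its call was lost (0.37, adjusted p = 0.134). NAV3 (0.86 ± 0.08) and TENM2, a teneurin (0.86 ± 0.06), rose too. All 5 NAV3 probe sets changed upward, and 1 passed across all probe sets.

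TNFRSF19, a receptor of the tumour necrosis factor receptor family, had intensities of 1354, 1354 and 1396 in shETV1 and 762, 714 and 773 in shControl arrays (0.85 ± 0.06, adjusted p = 2.76e-05). SI, the intestinal disaccharidase sucrase-isomaltase, had 153, 156 and 159 in shETV1 and 69.5, 84.4 and 75.1 in shControl arrays (0.90 ± 0.06). GASK1B, a kinase-like protein of the Golgi, had 1528, 1596 and 1292 in shETV1 and 838, 744 and 789 in shControl arrays (0.88 ± 0.07). Every shETV1 array of these 3 genes lay above every shControl array, as their choice required. ANKRD29 (1.0 ± 0.06), CA13, a carbonic anhydrase (0.88 ± 0.08), ADAM2, a sperm surface protein (0.82 ± 0.07), and ZBBX (0.79 ± 0.12) rose as well. SRGAP2, which regulates the GTPase Rac, changed by 0.99 ± 0.14, on 1 of 2 probe sets and with shControl arrays of 7.71, 13.9 and 18.9. It exceeded the array median in 2 shETV1 and 0 shControl arrays with DHT, and in 1 array of each hairpin with EtOH. It was therefore tested only through the shETV1 DHT group, where it is high. Close copies of SRGAP2 in the genome may share its probes. Of the 15 most raised genes 9 have several probe sets, which agreed in sign in 7, and of the 15 most lowered genes 9 have several, which agreed in 5. All 30 calls passed without any 1 of the 12 arrays, in fits that kept the genes tested with all 12. The filter on dim genes was not redone there. For SDK1, tested only through its 3 shControl DHT arrays, this does not show that the call holds without 1 of those.

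**Figure D2:**
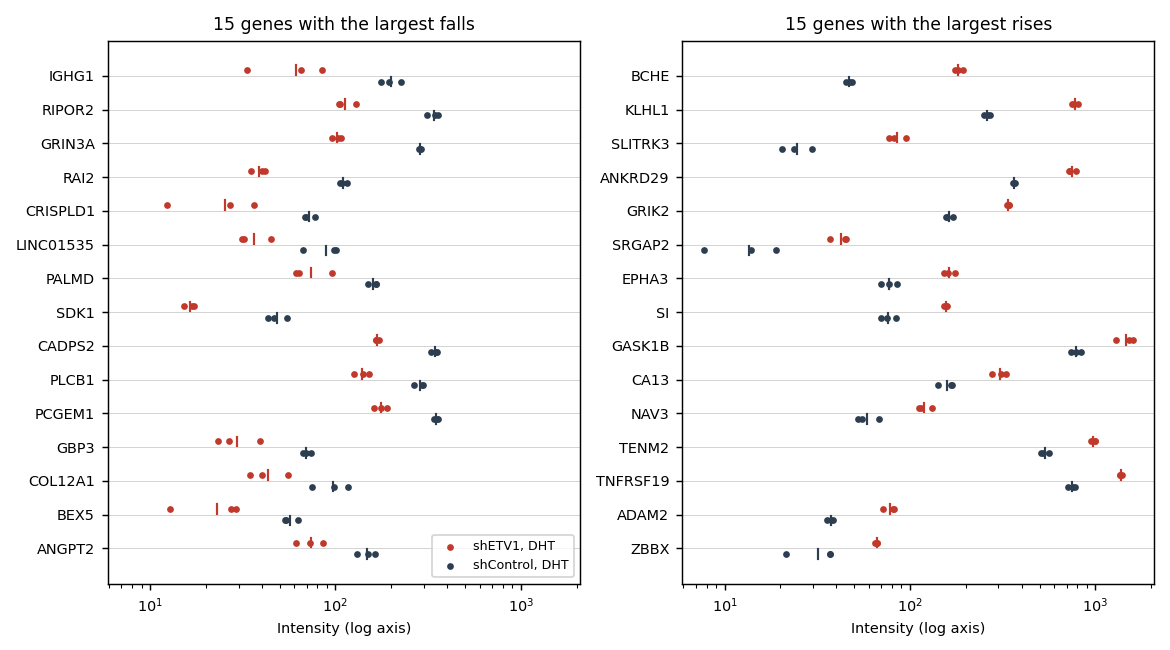
Intensity (x, log axis) of the 15 genes with the most negative (left) and most positive (right) changes with DHT; each point is an array, shETV1 above shControl, and bars are means. The genes were picked among those without overlap between the groups, which holds for 26.5% of all genes tested, and the widest scatter is in dim genes such as CRISPLD1 and IGHG1.

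Genes that androgen induces fell in a few cases. Of 33 tested members of this list 3 fell (9.09%, beside 2.43% of all genes tested) and none rose. Below 0 lay 25, beside 5439 of all 12847 genes tested, and the median was -0.11, beside 0.02 for all genes tested. Over the alternatives, leaving aside the one that asked for a change of at least 1 log2 unit, 2 to 7 members fell. STEAP4, a metalloreductase, had intensities of 752, 777 and 714 in shETV1 and 1099, 1174 and 1051 in shControl arrays (-0.56 ± 0.08, adjusted p = 0.00357, but 0.0593 with an offset of 1). KLK3 had 8148, 7321 and 7520.4 in shETV1 and 10707, 10518 and 10951 in shControl arrays, a mean 28.6% lower (-0.49 ± 0.07, adjusted p = 0.00423). Both genes separated the groups while KLK3 stayed among the brightest genes of the array. All fallen genes separated them (100%, beside 26.5% of all genes tested). KLK2, a kallikrein protease next to KLK3, had 3818, 3473 and 3673 in shETV1 and 4806, 4589.9 and 4761 in shControl arrays. The KLK2 groups did not overlap either, but its change of -0.37 ± 0.11 did not pass (adjusted p = 0.0918). It passed in 6 of 29 alternatives, and 1 of its 4 probe sets passed across all probe sets (-0.61, adjusted p = 0.0356). KLK2 and KLK3 are similar in sequence, so their probe sets may share signal. TMPRSS2, the protease gene whose promoter is fused to ERG in VCaP, had 5216, 5254 and 5422 in shETV1 and 6338, 6318 and 5854 in shControl arrays. It changed by -0.22 ± 0.05 (adjusted p = 0.0450), a call that was lost in 17 of 30 alternatives, and none of its 4 probe sets passed across all probe sets. SLC45A3 (-0.20 ± 0.06, adjusted p = 0.0698) and FKBP5, a co-chaperone of steroid receptors (-0.17 ± 0.07, adjusted p = 0.189), did not pass.

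The stretch before the KLK3 start is shown because the androgen response of this gene is read throughout and the hormone acts on elements of this kind. It is the RefSeq sequence of the 250 bases at chr19:50854665-50854914 (GRCh38.p14, plus strand), with the letters AGAACA in capitals, 1 arm of the androgen response element, 170 bases before the start:
KLK3: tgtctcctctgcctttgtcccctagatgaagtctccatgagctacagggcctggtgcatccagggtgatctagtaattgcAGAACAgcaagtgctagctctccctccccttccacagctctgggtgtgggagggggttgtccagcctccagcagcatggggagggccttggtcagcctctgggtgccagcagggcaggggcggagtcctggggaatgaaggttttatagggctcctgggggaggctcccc
The gene was picked for printing after its match was seen, and the match is a description of letters, not of binding.

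Several genes that androgen represses rose. Of 16 tested members 6 rose (37.5%, beside 2.62% of all genes tested) and 1 fell (6.25%, beside 2.43%), with a median of 0.08. Besides BCHE and SI these were ACKR3, CAMK2N1, DDC and OPRK1. ACKR3, a scavenging chemokine receptor, had intensities of 917, 921 and 823 in shETV1 and 498, 555 and 513 in shControl arrays (0.75 ± 0.05, adjusted p = 2.39e-05). CAMK2N1, an inhibitor of the calcium- and calmodulin-dependent kinase II, had 4194, 4266 and 4099 in shETV1 and 2542, 2495 and 2579 in shControl arrays (0.72 ± 0.04, adjusted p = 3.05e-06). All shETV1 arrays of both genes lay above all shControl arrays. Among all risen genes 99.7% separated the groups, beside 26.5% of all genes tested. DDC, the decarboxylase that makes dopamine and serotonin, had 5478, 5781 and 5498 in shETV1 and 4069, 4253 and 3950.4 in shControl arrays (0.45 ± 0.04, adjusted p = 1.38e-04), a call lost when its probe sets were averaged. OPRK1, the kappa opioid receptor, had 373, 351 and 284 in shETV1 and 252, 243 and 259 in shControl arrays (0.39 ± 0.08, adjusted p = 0.0197). TMEFF2, a transmembrane protein with follistatin domains, changed by -0.16 ± 0.04 (adjusted p = 0.0410), a call lost in 19 of 30 alternatives. DHT itself raised TMEFF2 in shControl cells, by 0.28 ± 0.04 (adjusted p = 1.61e-04), against its place in this list. The UGT2B genes, which glucuronidate androgens and share sequence among themselves, did not pass: UGT2B15 changed by 0.15 ± 0.06, UGT2B17 by -0.04 ± 0.06 and UGT2B28 by 0.06 ± 0.13. For comparison, DHT against EtOH in shControl cells, which uses the same shControl DHT arrays, changed BCHE by -1.92, ACKR3 by -2.46, CAMK2N1 by -1.63, OPRK1 by -4.00, KLK3 by 2.47, STEAP4 by 5.17 and TMPRSS2 by 3.04.

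A set of androgen-responsive genes that shares no array with this comparison was taken from VCaP. In VCaP siControl cells DHT raised 128 of 12863 tested genes by at least 1 log2 unit (0.995%) and lowered 273 (2.12%). Of the raised genes that were also tested in LNCaP, 21 fell after shETV1 with DHT (18.1%) and 3 rose, with a median change of -0.12. Of the lowered genes 209 were tested: 38 rose (18.2%) and 10 fell, with a median of 0.09. Among the 12330 genes tested in both lines 2.68% rose and 2.45% fell. The 21 that fell include STEAP4, ACAD8, a mitochondrial dehydrogenase of valine breakdown, and SPDEF, and the 38 that rose include BCHE, SI, CAMK2N1, ADAM2, NAV3 and TENM2. TNFRSF19 went the other way, since DHT raised it by 1.84 in VCaP siControl cells and it rose after shETV1. With EtOH in place of DHT, shETV1 raised 5 (4.31%) and lowered 10 (8.62%) of the genes that DHT raises in VCaP. It raised 15 (7.18%) and lowered 29 (13.9%) of the 209, beside 1.21% and 2.92% of the genes tested in both lines.

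Luminal identity genes fell in part. Of 14 tested members of this list 4 fell (28.6%, beside 2.43% of all genes tested) and none rose, with a median of -0.06. ACP3, prostatic acid phosphatase, had intensities of 2173, 2220.4 and 2265 in shETV1 and 4007, 3987 and 4044 in shControl arrays, a mean 44.7% lower (-0.85 ± 0.05, adjusted p = 6.23e-06). KRT8, a keratin of luminal cells, had 4733, 4400 and 4806 in shETV1 and 5894, 5617 and 5970 in shControl arrays (-0.33 ± 0.05, adjusted p = 0.00357). SPDEF, a prostate ETS factor, had 1221, 1155 and 1231 in shETV1 and 1646, 1567 and 1499 in shControl arrays (-0.38 ± 0.06, adjusted p = 0.00617). Each of these 3 genes separated the groups, as every fallen gene did, and KLK3 is the other member that fell. Only 3 of the 5 SPDEF probe sets changed downward, and with all 5 averaged its call was lost. Among basal markers only 4 were tested, of which 1 fell (25.0%, beside 2.43% of all genes tested). It was ITGA6, the laminin-binding integrin alpha 6 (-0.39 ± 0.05, adjusted p = 0.00115).

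The ETS family list includes ETV1, the target of the hairpin, whose fall says nothing of the other members. In this list 4 of 20 tested members fell (20.0%, beside 2.43% of all genes tested) and none rose, and the median was 0.04. Besides ETV1 and SPDEF these were ELF1, with intensities of 605, 676 and 570.0 in shETV1 and 713, 845 and 789 in shControl arrays (-0.34 ± 0.08, adjusted p = 0.0321), and ELK3, a ternary complex factor that binds with serum response factor (-0.32 ± 0.07, adjusted p = 0.0359). The ELK3 call was lost in 14 of 30 alternatives, and with its probe sets averaged the change was 0.11. Of 16 tested outputs of MAP kinase and ETS signalling 2 fell (12.5%, beside 2.43% of all genes tested), SPRY4 and ELK3, and none rose, with a median of -0.11. SPRY4, a feedback inhibitor of receptor tyrosine kinase signalling, had 30.4, 34.4 and 30.3 in shETV1, under the array median, and 65.9, 70.8 and 70.2 in shControl arrays (-0.83 ± 0.12, adjusted p = 0.00314). EGR1 (-0.41 ± 0.12, adjusted p = 0.0759) and MAFF (-0.42 ± 0.12, adjusted p = 0.0686) did not pass. CCND1 changed by -0.09 ± 0.06 and MYC by 0.14 ± 0.08.

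Of 11 tested genes of invasion and the mesenchymal state 4 fell (36.4%, beside 2.43% of all genes tested) and none rose, with a median of -0.06. TWIST1, a transcription factor of mesenchymal cells, had intensities of 735, 720.2 and 744 in shETV1 and 1209, 1164 and 1104 in shControl arrays (-0.65 ± 0.08, adjusted p = 8.39e-04). CXCR4, a chemokine receptor, had 93.2, 108 and 108 in shETV1 and 165, 156 and 163 in shControl arrays (-0.58 ± 0.12, adjusted p = 0.0243). VIM, the intermediate filament vimentin, had 183, 145 and 176 in shETV1 and 249, 235 and 234 in shControl arrays (-0.48 ± 0.09, adjusted p = 0.0138). The VIM call was lost in 5 of 29 alternatives, and neither of its 2 probe sets passed across all probe sets. The groups of all 3 genes were apart, as in every fallen gene, and FN1, fibronectin, fell by less (-0.17 ± 0.04, adjusted p = 0.0251). CDH1, the epithelial cadherin, changed by -0.06 ± 0.04, and SNAI2 by -0.03 ± 0.10. The matrix metalloproteinase MMP9 changed by 0.10 ± 0.09. Among 10 tested non-epithelial markers 1 rose (10.0%, beside 2.62% of all genes tested) and none fell. It was ACTA2, smooth muscle actin (0.43 ± 0.10, adjusted p = 0.0347, lost in 12 of 29 alternatives).

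Enzymes of androgen metabolism had 3 falls among 23 tested members (13.0%, beside 2.43% of all genes tested), with a median of -0.04. AKR1C2, which inactivates DHT, had intensities of 29.5, 31.8 and 40.5 in shETV1 and 62.5, 56.9 and 66.9 in shControl arrays (-0.65 ± 0.11, adjusted p = 0.00655), a call lost with averaged probe sets (adjusted p = 0.132), and AKR1C genes share sequence. STS, steroid sulfatase (-0.25 ± 0.05, adjusted p = 0.0160), and HSD17B4 (-0.18 ± 0.03, adjusted p = 0.0149, lost in 9 of 30 alternatives) also fell. Among 19 genes of insulin-like growth factor and PI3 kinase signalling only IGFBP3 passed, and it fell (5.26%, beside 2.43% of all genes tested). IGFBP3, which binds insulin-like growth factors, had 379, 397 and 387 in shETV1 and 624, 586 and 547 in shControl arrays (-0.57 ± 0.07, adjusted p = 0.00111). Among 18 genes of TGF-beta and BMP signalling only BMPR1B, a BMP receptor, passed, and it fell (5.56%, beside 2.43% of all genes tested). BMPR1B had 2409, 2450.5 and 2361 in shETV1 and 3026, 3003 and 3029 in shControl arrays (-0.33 ± 0.05, adjusted p = 0.00350).

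Lists of growth, stress and lipid genes each held at most 3 calls. Of 36 cell cycle genes 3 rose (8.33%, beside 2.62% of all genes) and none fell: CCNE1, cyclin E1 (0.30 ± 0.06, adjusted p = 0.0187), the replication factor MCM10 (0.37 ± 0.09, adjusted p = 0.0372) and CDT1, a licensing factor (0.23 ± 0.06, adjusted p = 0.0469). The MCM10 call was lost in 19 and the CCNE1 call in 10 of 30 alternatives. Of 25 interferon genes 2 rose (8.0%, beside 2.62% of all genes) and 1 fell (4.0%, beside 2.43%). CXCL10 (0.50 ± 0.10, adjusted p = 0.0197) and HERC5 (0.26 ± 0.05, adjusted p = 0.0191) rose and IFI35 fell (-0.24 ± 0.06, adjusted p = 0.0496, lost in 20 of 29 alternatives). The HERC5 call was lost in 10 of 30 alternatives and the CXCL10 call in 8 of 29. CXCL10 exceeded the array median only in shETV1 arrays, so it was tested through the hairpin where it is high. By limma 0 of 21 p53 targets passed, and 4 had an unadjusted p below 0.05, all upward. Over the alternatives 0 to 3 rose, and 3 rose with EtOH. Their median was 0.11, with 18 at or above 0 and 3 below, beside 5439 of all 12847 genes tested below 0. Among cholesterol synthesis genes 2 of 18 fell (11.1%, beside 2.43% of all genes), HMGCS1 (-0.23 ± 0.05) and MSMO1 (-0.23 ± 0.05), calls lost in 9 and 8 of 30 alternatives. Among fatty acid genes 1 of 21 fell (4.76%, beside 2.43% of all genes). It was ACSL4, which activates polyunsaturated fatty acids (-0.52 ± 0.11, adjusted p = 0.0281, lost in 10 of 28 alternatives). Of 29 genes of the unfolded protein response 1 fell (3.45%, beside 2.43% of all genes). It was CREB3L4, a membrane-bound transcription factor of prostate cells (-0.34 ± 0.07, adjusted p = 0.0181, lost in 8 of 30 alternatives). Of 5 tested neuroendocrine markers 1 rose (20.0%, beside 2.62% of all genes), DDC.

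**Figure D3:**
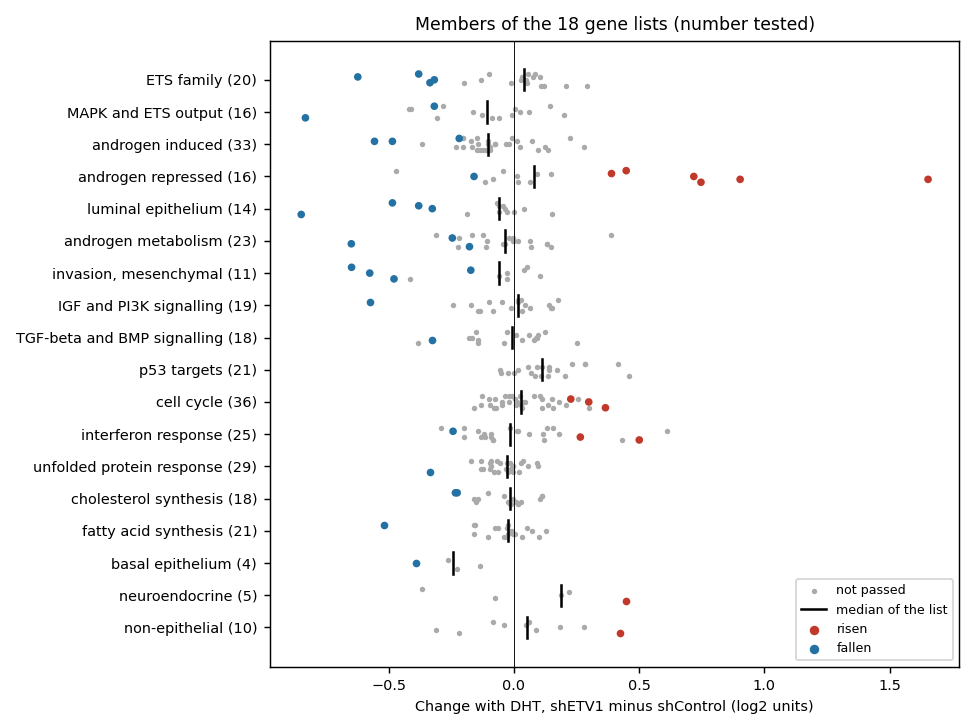
Change with DHT (x, shETV1 minus shControl, log2 units) of each tested member of the 18 gene lists; red members rose, blue members fell, grey members did not pass, and the black bar is the list median. The androgen repressed list reaches 1.65 through BCHE, and the androgen induced list sits mostly just below 0, with a median of -0.11.

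The same knockdown with EtOH, which compares other arrays within the shared fit, raised 155 genes (1.21%) and lowered 369 (2.87%). Of the genes raised with DHT 83 also rose with EtOH, 24.6% of the DHT list and 53.5% of the EtOH list. Of the genes lowered with DHT 175 also fell with EtOH, 56.1% of the DHT list and 47.4% of the EtOH list, while 1 gene rose with DHT and fell with EtOH and 2 did the opposite. Among genes raised with DHT the median change was 0.30 with DHT and 0.12 with EtOH. Among genes lowered with DHT the medians were -0.35 with DHT and -0.28 with EtOH. Most of the strongest changes recurred: 14 of the 15 most raised genes also rose with EtOH, and 10 of the 15 most lowered also fell. RIPOR2 changed by -1.59 ± 0.08 with EtOH, RAI2 by -1.17 ± 0.07, PCGEM1 by -1.13 ± 0.07, and BCHE by 1.32 ± 0.06. LINC01535 (-0.16 ± 0.14), SDK1 (-0.11 ± 0.12), COL12A1 (0.06 ± 0.16) and IGHG1 (-0.82 ± 0.29) did not pass with EtOH. The first 3 lay under the array median in all EtOH arrays, where the offset of 16 leaves little room for a fall. The change with DHT minus that with EtOH was -0.84 ± 0.20, -0.86 ± 0.17, -0.98 ± 0.23 and -0.72 ± 0.41 in these 4, in this order. None of these differences passed (limma adjusted p = 0.224, 0.120, 0.219 and 0.753), which does not show that the changes were equal. With EtOH 12 of the 33 androgen-induced genes fell (36.4%, beside 2.87% of all genes tested), against 3 with DHT, and the difference between these counts was not tested. The EtOH counts also moved with single arrays, to 99 risen and 208 fallen without shETV1 EtOH replicate A, 86 and 229 without B and 83 and 228 without C. They were 81 risen and 196 fallen without shControl EtOH replicate A, and 264 and 96 risen without B and C.

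The knockdown effect differed between DHT and EtOH in 13 genes (0.101%), by the interaction contrast. KLK2 showed the highest value. With EtOH it had intensities of 38.2, 60.6 and 54.7 in shETV1 and 258, 215 and 224 in shControl arrays, a change of -1.90 ± 0.11, so that the effect with DHT was less negative by 1.53 ± 0.16 (adjusted p = 0.00817). KLK3 with EtOH had 724, 769 and 841 in shETV1 and 2122, 1784 and 1860 in shControl arrays, a change of -1.29 ± 0.07 and an interaction of 0.80 ± 0.10 (adjusted p = 0.0200). Both kallikreins were thus further apart between the hairpins without hormone than with it. CTBP1-AS, an antisense transcript at the CTBP1 locus, changed by -0.07 ± 0.06 with DHT and -0.82 ± 0.06 with EtOH (interaction 0.75 ± 0.08), and the strand its probes read was not checked. CAMK2N1 showed the reverse, with 8147, 8272 and 8281 in shETV1 and 8064, 7886 and 7713 in shControl EtOH arrays (0.06 ± 0.04) and an interaction of 0.66 ± 0.05 (adjusted p = 0.00103). ACAD8 had 2060.4, 2093 and 2120 in shETV1 and 2928, 2958 and 3040.5 in shControl arrays with DHT (-0.51 ± 0.04), but changed by -0.05 ± 0.04 with EtOH (interaction -0.46 ± 0.05). KLHL1 rose under both conditions, by 1.52 with DHT and 0.95 with EtOH (interaction 0.57 ± 0.06). TNFRSF19 rose by 0.85 with DHT and 1.45 with EtOH (interaction -0.59 ± 0.09, adjusted p = 0.0485). ANGPT2 fell with DHT and rose with EtOH (0.52 ± 0.13), where it was dim, with 16.9, 24.6 and 16.6 in shETV1 and 11.6, 6.65 and 7.37 in shControl arrays (interaction -1.40 ± 0.18). The other 5 were ACKR3 (0.52), GUSBP4 (0.50), LOC105376805 (0.49), GPR158 (0.43) and COLEC12 (0.41), which are outside the naming rule as interactions and are given because the 13 are few. The count of 13 moved between 1 and 39 over the alternatives. It was 7 or 8 without any 1 of shETV1 EtOH A, B or C, shETV1 DHT A, shControl DHT A, B or C, or shControl EtOH A or B.

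**Figure D4:**
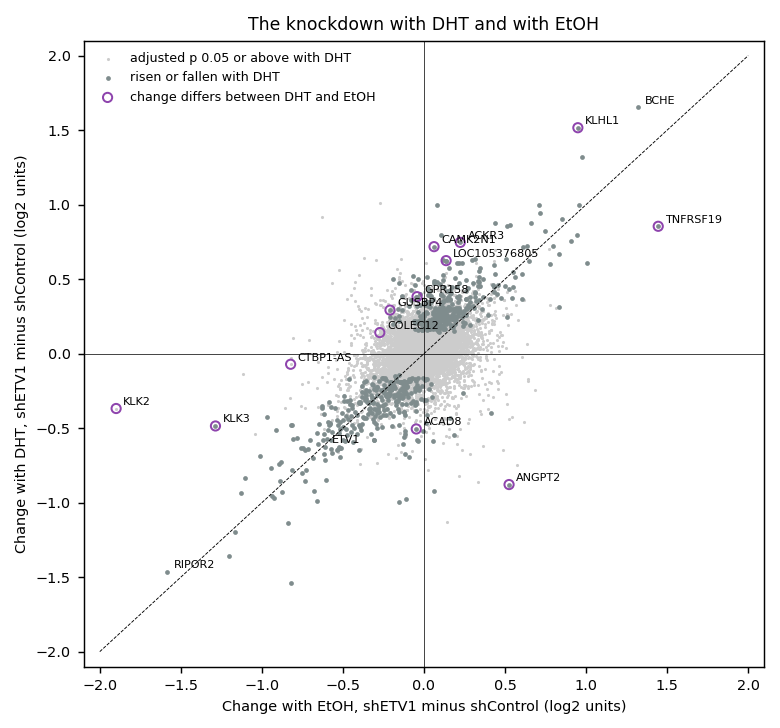
Change after shETV1 with DHT (y) against that with EtOH (x), in log2 units, for the genes tested; dark points rose or fell with DHT, rings mark the 13 genes whose change differed between the conditions, and the dashed line is equality. KLK2 and KLK3 lie far left of the line at -1.90 and -1.29 with EtOH, and ANGPT2 lies in the lower right at -0.88 with DHT.

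**Figure D5:**
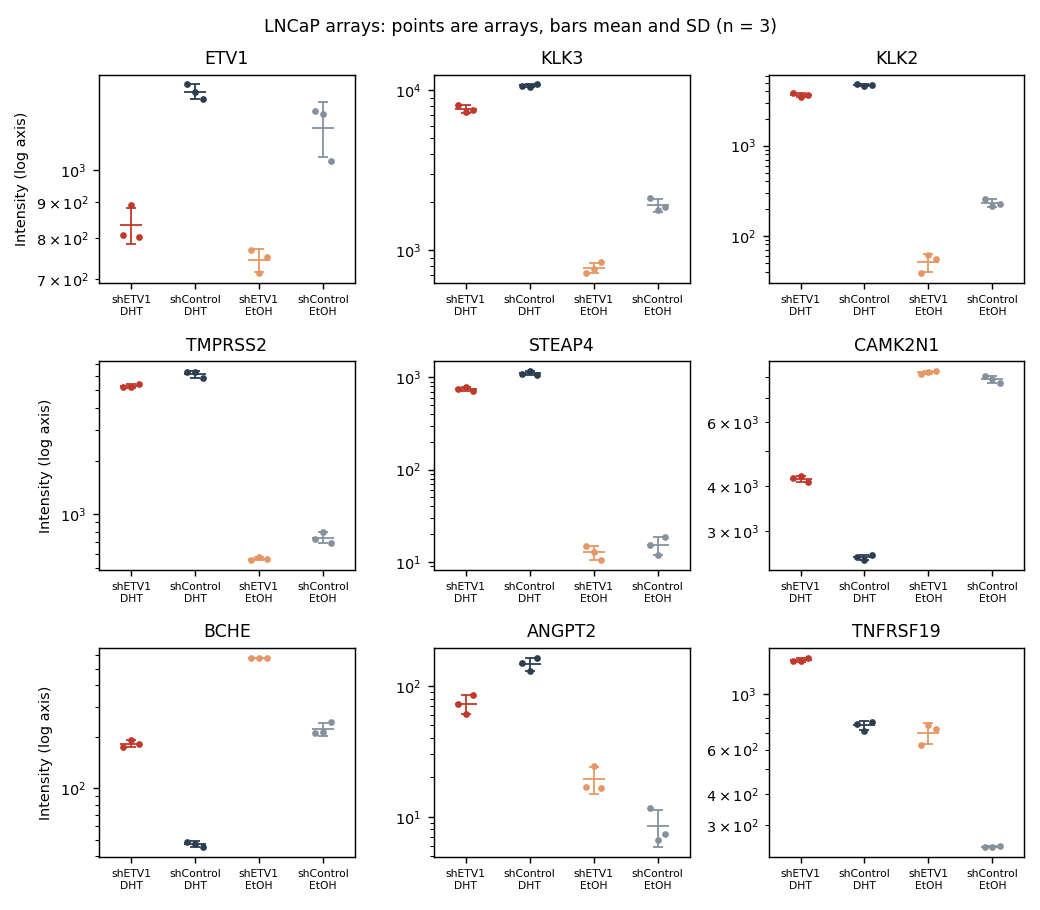
Intensity (y, log axis, a range of its own for each gene) of 9 genes in shETV1 and shControl arrays with DHT and with EtOH; points are arrays and bars the mean and SD of 3. ETV1 is lower in shETV1 under both conditions, KLK3 and KLK2 differ more between hairpins with EtOH, and CAMK2N1 differs with DHT, at 4099 to 4266 in shETV1 and 2495 to 2579 in shControl.

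In VCaP with DHT, siERG raised 492 genes (3.82%) and lowered 693 (5.39%). Of the 461 raised genes tested in LNCaP, 27 rose and 34 fell after shETV1 with DHT, 5.86% and 7.38%. Of the 589 lowered genes tested, 22 rose and 58 fell, 3.74% and 9.85% beside 2.68% and 2.45% of the genes tested in both lines. STEAP4 was lower after both knockdowns, at -0.56 after shETV1 and -0.42 ± 0.06 after siERG, and TNFRSF19 was higher after both, at 0.85 and 0.53. BCHE went apart, at 1.65 after shETV1 and -0.37 after siERG, as did GRIN3A, at -1.36 and 0.29. KLK3 changed by -0.04 ± 0.06 after siERG and did not pass there. The difference between the knockdowns was not tested.

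Genes that changed with DHT were at times neighbours on a chromosome, by the gene order of RefSeq GRCh38.p14. For 35 of the 337 risen genes the next tested gene also rose (10.4%, beside 2.63% of all genes with a next gene), and for 22 of the 312 fallen genes the next also fell (7.05%, beside 2.43%). The next gene went the opposite way for 4 risen (1.19%) and 14 fallen genes (4.49%). Among 8 runs of at least 3 neighbouring genes called the same way, 1 held SI, SLITRK3, BCHE and ZBBX, all 4 among the 15 most raised genes. With EtOH they rose too, by 0.85, 0.97, 1.32 and 0.95. Another held TNFRSF19, MIPEP, a mitochondrial peptidase (0.76), and PCOTH (0.67). THYN1 (-0.29), ACAD8 (-0.51) and GLB1L2 (-0.34) formed a run that fell with DHT, while with EtOH their changes of 0.05, -0.05 and -0.05 did not pass. TMEFF2 (-0.16), PCGEM1 (-0.94) and SLC39A10, a zinc transporter (-0.31), formed another. Neighbours here are next tested genes at any distance. PCGEM1 and SLC39A10 lie 2836130 bases apart and BCHE and ZBBX 1340979, while some called pairs overlap, such as MIPEP and PCOTH. The runs were looked for after seeing the changes, and of their 25 genes 23 kept their sign and 18 passed the same way with EtOH. Among all genes risen with DHT 87.5% kept their sign and 24.6% passed the same way, and among all fallen 94.6% and 56.1%.

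Promoters were searched for letters of ETS sites and of the androgen response element, in the 250 bases before each RefSeq start and on both strands. The ETS site CCGGAAG was in 34 of 263 risen genes with a promoter entry (12.9%), in 20 of 266 fallen genes (7.52%) and in 1649 of 10407 tested genes (15.8%), beside 8.82% of all 27305 promoters. The looser site AGGAAG was in 24.0% of risen, 30.8% of fallen and 27.4% of tested genes, beside 28.7% of all. The motif AGAACA was in 6.84% of risen, 7.52% of fallen and 7.60% of tested genes, beside 12.4% of all. The full androgen response element, searched as AGAACA and its inverted copy with 3 free bases between, was in 0 of these tested genes and in 1 promoter of all. An exact copy this rare cannot tell the groups apart, and inexact copies were not searched. Of 49 named genes that passed and have an entry, 2 hold CCGGAAG. Both fell, LINC01535, a long non-coding RNA with 44.97, 31.5 and 32.0 in shETV1 and 66.6, 101 and 98.4 in shControl arrays (-1.0 ± 0.14, adjusted p = 0.00280), and KRT8. They are shown as examples of a promoter that holds the site, in capitals, at chr19:37251635-37251884 (plus strand, 24 bases before the start) and chr12:52926470-52926719 (minus strand, 58 bases before the start, on the opposite strand), both GRCh38.p14 from RefSeq:
LINC01535: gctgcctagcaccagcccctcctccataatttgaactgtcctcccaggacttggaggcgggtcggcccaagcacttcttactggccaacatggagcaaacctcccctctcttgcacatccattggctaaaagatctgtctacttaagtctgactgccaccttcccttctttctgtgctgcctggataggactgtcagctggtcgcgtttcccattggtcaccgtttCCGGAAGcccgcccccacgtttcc
KRT8: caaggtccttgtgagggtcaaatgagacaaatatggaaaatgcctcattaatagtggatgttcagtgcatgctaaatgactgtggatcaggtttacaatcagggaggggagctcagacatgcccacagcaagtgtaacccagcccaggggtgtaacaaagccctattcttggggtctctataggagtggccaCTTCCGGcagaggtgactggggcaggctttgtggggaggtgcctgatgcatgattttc
A match describes letters in this window and says nothing of binding.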

How the data were processed

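The authors deposited 1 intensity per probe set and array on HG-U133 Plus 2.0. Its scale is not stated in the labels; it was taken as linear from the range of the values, and no further scaling was applied. The steps from scan to intensity are not stated either. Per the labels' protocols, total RNA was taken with Trizol and labelled as biotinylated cRNA, from 3 biological replicates per group. There were 0 missing values and 0 identical arrays.

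The log2 of the intensity plus 16 was fitted with limma 3.58.1 (R 4.3.3) over the 12 LNCaP arrays, 4 groups of 3 with a common spread. Of 54675 probe sets 41097 name 1 gene, for 19775 genes, of which 0 symbols had to be updated. For each gene the brightest probe set on average over the LNCaP arrays stood for it, and it was tested if above the array median in at least 3 arrays. A second fit took all probe sets unfiltered. VCaP was fitted apart. P-values are two-sided, Benjamini-Hochberg adjusted. The fits were tested on simulated data. Same-lettered replicates did not deviate together (correlations 0.0196, 0.0561 and 0.0187), so the letters were not taken as pairs.

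The comparison, gene lists and naming rule were chosen with earlier results of these data known. Named genes are ETV1, KLK3 and TMPRSS2 (1 further gene of the rule is not reported here), the 15 highest and 15 lowest non-overlapping changes, up to 2 risen and 2 fallen members per list by adjusted p, and the 5 highest and 5 lowest interactions. Other list members are given to complete a count or as values. Alternatives covered probe set choice, filters, offsets, scaling, variance model, array weights, thresholds, RNA ratios as covariates, the replicate block and left-out arrays. Leaving out arrays in the fit of all probe sets, and offsets of 1 and 64 with each gene's probe set kept, were chosen after seeing the data, since changing the offset alone also changed some probe sets.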

Additional observations from a re-analysis of the deposited data

Results flagged for a closer look

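In 8 of the named genes the shETV1 effect with DHT differed from that with EtOH by the interaction contrast, each with 3 arrays per group, as the change with DHT minus the change with EtOH. The difference was 1.53 ± 0.16 (SE) for KLK2, 0.80 ± 0.10 for KLK3, 0.75 ± 0.08 for CTBP1-AS, 0.66 ± 0.05 for CAMK2N1 and 0.57 ± 0.06 for KLHL1. It was -0.46 ± 0.05 for ACAD8, -0.59 ± 0.09 for TNFRSF19 and -1.40 ± 0.18 for ANGPT2. Groups of 3 arrays are too small to look for single outlying arrays.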

How the results depend on the processing

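Each result was recomputed with 1 choice changed at a time. Counts are given as risen and fallen genes with DHT (337 and 312), with EtOH (155 and 369), and genes with an interaction (13). Without the filter on dim genes they were 149 and 179, 81 and 188, and 5. With only the 2 groups compared, and so fewer arrays behind the spread, they were 119 and 146, and 79 and 196. At an adjusted p below 0.01 they were 94 and 119, 65 and 143, and 6, and with a change of at least 1 log2 unit also asked for they were 5 and 5, 3 and 10, and 2, where ETV1 at -0.62 no longer passed. Quantile normalization gave 210 risen with DHT, and centring gave 221 risen and 480 fallen. With the GAPDH ratio as a covariate 208 rose with DHT, 47 rose and 92 fell with EtOH and 4 had an interaction, and with the ACTB ratio 186 fell with DHT and 1 had an interaction. Averaged probe sets gave 241 fallen with EtOH and 7 interactions. A trended variance and array weights each gave 253 risen with EtOH, with 39 and 22 interactions, and the filter at the 60th percentile gave 20 and the omission of _x_at and _s_at probe sets 4 interactions. With the replicate block 204 genes rose with DHT and 1 had an interaction, and across all probe sets 114 rose and 97 fell. Across all probe sets (237 and 200) the counts were 806 and 499 with only those above the array median, 808 and 588 with a trended variance, and 20 and 21 with the 2 groups alone. Leaving out 1 array gave 133 to 313 risen and 172 to 311 fallen genes with DHT, 81 to 264 and 196 to 355 with EtOH, 7 to 12 interactions, 92 to 152 risen and 82 to 132 fallen probe sets, and -0.67 to -0.60 for ETV1. Among named genes 1573 of the recomputed values kept their direction and their side of the threshold, 225 lost the call, 6 gained it, all of KLK2, and 1 changed sign, ELK3 at 0.11 (adjusted p = 0.65) with averaged probe sets. The causes were not tested. Depth is not defined for arrays; genes under the array median have the least certain changes.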
